A study of Mus musculus with 22 samples.

Results

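Matrix metalloproteinases (MMPs) and their tissue inhibitors (TIMPs) were followed in the livers of mice that lacked Flcn in hepatocytes and in control mice, on a chow or a fibrosis-inducing diet. The listed genes were 7 MMPs, Mmp2, Mmp8, Mmp9, Mmp12, Mmp13, Mmp14 and Mmp19, and 3 TIMPs, Timp1, Timp2 and Timp3, found by their symbols among the 55573 genes of the count table, and all 10 were present. Of these, 9 had enough counts to be tested, and Mmp8, with a mean of 5.41 counts per library, did not.

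MMPs are zinc-dependent proteases that are made as inactive precursors and cut collagens, elastin and other matrix proteins once the propeptide is removed. TIMPs bind the active site of the mature enzyme and block it. In liver, most of these genes are known to be expressed by stellate cells, macrophages and neutrophils rather than by hepatocytes, and the turnover of scar depends on the proteases and inhibitors together.

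The groups were 6 Cre mice on chow, 5 Cre mice on a diet deficient in methionine and choline (MCD), 5 FLCN KO mice on chow and 6 FLCN KO mice on MCD. All were C57BL/6 mice that carried Albumin-Cre, which is active in hepatocytes. The controls had wild-type Flcn alleles and the FLCN KO mice had floxed alleles, so that other liver cells kept the gene. The mice began the diets at 6 weeks of age, stayed on them for 6 weeks and were 3 months old at collection. The chow was a purified diet with 10% of its energy from fat and came from another supplier than MCD, so the diets may differ in more than methionine and choline. One library was made per liver from poly(A) RNA, with 13751347 to 21144388 counts per library and a median of 17889283.5 in Cre chow, 19092932 in Cre MCD, 18282455 in FLCN KO chow and 19039129.5 in FLCN KO MCD.

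Several libraries stood apart. Xist was expressed in 12 libraries, 3 in each group, and close to absent in the other 10, and the labels give no sex. The 5 chow libraries for which the study's read statistics list a low mapped share were the 5 chow libraries without Xist, so sex and mapped share cannot be told apart on chow. The library of Cre MCD 1 held Xist together with Y-linked counts at 17.9% of the median of the libraries without Xist, and FLCN KO Chow 2 did so at 13.8%. FLCN KO MCD 3 held 7.54%, FLCN KO Chow 4 6.39% and Cre Chow 2 5.27%, against at most 1.57% in the other libraries with Xist. The cut for standing apart was 10%, so these lower ones were kept where such libraries were left out. In Cre MCD 3, 15 skeletal muscle markers summed to 3773 CPM (normalised counts, scaled to the same library size with TMM factors), against 179 in Cre MCD 4, 85.2 in FLCN KO MCD 3 and at most 23.7 in the other 19. The tissue label was borne out by the hepatocyte markers, of which Alb alone averaged between 56753 CPM in FLCN KO MCD and 101060 CPM in Cre chow.

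Flcn itself was measured first. It had 26.1 to 40.2 CPM with a median of 31.8 in Cre chow, and 24.2, 20.0, 16.7, 19.4 and 21.8 CPM in the 5 FLCN KO chow livers, so that the chow groups did not overlap (log2 difference of -0.63 ± 0.17, SE, adjusted p = 0.0249, edgeR quasi-likelihood test). On MCD, the 5 Cre livers had 31.7, 18.2, 39.9, 32.5 and 23.6 CPM and the 6 FLCN KO livers 17.6 to 32.6 CPM with a median of 26.6, and these groups overlapped (-0.16 ± 0.17, adjusted p = 0.567). Exons outside the deleted part and cells without Cre still add to these counts, so on MCD they do not check the genotype labels.

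Of the members, 3 lie in a cluster of 10 MMP genes on chromosome 9 (GRCm38) that spans 427 kb from 7272514 to 7699585. Mmp13 is at chr9:7272514-7283331, Mmp12 at chr9:7344381-7369499 and Mmp8 at chr9:7558456-7568485, with Mmp27, a further member of the cluster, at chr9:7571396-7581885. The 250 bases before the start site of Mmp13, Mmp12, Timp1 and Mmp27 are shown because these genes carry the main differences below. They are RefSeq sequences on GRCm38.p6, printed 5′ to 3′ along the gene, with matches to the AP-1 motif TGANTCA in capitals. AP-1 (Fos and Jun dimers) is a known regulator of MMP genes.
Mmp13, chr9:7272264-7272513, plus strand: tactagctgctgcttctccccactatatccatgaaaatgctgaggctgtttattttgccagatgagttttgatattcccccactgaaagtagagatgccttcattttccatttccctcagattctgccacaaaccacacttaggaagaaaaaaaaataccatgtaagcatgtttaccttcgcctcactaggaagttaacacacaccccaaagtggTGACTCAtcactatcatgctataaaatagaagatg
Mmp12, chr9:7347124-7347373, plus strand: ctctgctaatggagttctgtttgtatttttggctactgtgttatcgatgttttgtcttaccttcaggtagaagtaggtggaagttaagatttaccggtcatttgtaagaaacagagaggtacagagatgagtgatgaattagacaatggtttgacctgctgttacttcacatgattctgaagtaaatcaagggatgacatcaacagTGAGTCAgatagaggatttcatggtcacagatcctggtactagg
Timp1, chrX:20869916-20870165, plus strand: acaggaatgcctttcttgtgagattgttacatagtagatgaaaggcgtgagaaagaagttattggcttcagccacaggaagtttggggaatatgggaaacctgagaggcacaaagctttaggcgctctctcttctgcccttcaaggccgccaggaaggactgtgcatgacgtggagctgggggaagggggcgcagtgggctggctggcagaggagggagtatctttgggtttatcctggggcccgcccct
Mmp27, chr9:7571146-7571395, plus strand: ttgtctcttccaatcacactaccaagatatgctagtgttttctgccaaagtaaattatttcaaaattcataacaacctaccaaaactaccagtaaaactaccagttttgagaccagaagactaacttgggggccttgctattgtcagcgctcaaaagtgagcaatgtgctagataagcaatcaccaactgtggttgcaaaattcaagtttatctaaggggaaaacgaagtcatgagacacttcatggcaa
The first base of the AP-1 match was at -35 in Mmp13 and at -44 in Mmp12, counted from the start site of the transcript. Windows of several other MMP genes in the cluster also held a match, among them genes with 0 counts in all livers. Windows were found for 7 of the 10 members, 8 windows in all. The Mmp12 window shown precedes a start site inside the annotated gene, and its other window, at the outer start site, held no match, and the windows of Mmp8, Mmp14, Timp1, Timp2 and Timp3 held none. Both strands were searched, and 6.75% of 32851 mouse windows of this length held the motif. The E-box CACGTG, to which the Flcn-controlled factors Tfeb and Tfe3 can bind, was in no member's window and in 6.02% of all. These matches describe letters only, and binding was not measured.

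The largest response to MCD among the tested members was that of Mmp12, the macrophage elastase. In Cre mice it rose from a median of 0.521 CPM on chow (0.0791 to 0.609) to 123, 56.0, 148, 147 and 77.6 CPM on MCD. The log2 difference was 7.97 ± 0.50 (251-fold, adjusted p = 4.96e-11). The Cre chow libraries held only 1 to 10 counts, so the size is not exact, and other settings gave 7.27 to 8.94. In FLCN KO mice it was 1.87, 1.60, 1.61, 0.772 and 2.43 CPM on chow, above every Cre chow liver, and 9.19 to 56.2 CPM with a median of 28.2 on MCD. The log2 difference by diet in FLCN KO mice was 4.26 ± 0.43 (19.1-fold, adjusted p = 1.11e-07). The genotypes thus changed order with the diet, with FLCN KO higher on chow (3.76-fold, 1.91 ± 0.57, adjusted p = 0.0383) and lower on MCD (3.49-fold, -1.80 ± 0.34, adjusted p = 0.00102). The chow difference was not called with limma-voom (1.99, adjusted p = 0.335) or with a replicate block (1.87, adjusted p = 0.0871). Its call was also lost in 9 of the 22 fits that each left out 1 library. On MCD, all but the highest of the 6 FLCN KO livers were below the lowest Cre liver, and 56.2 against 56.0 CPM is the only overlap. The interaction, which tests whether the response to diet differs between genotypes, was -3.71 ± 0.66 (adjusted p = 0.00207).

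The 2 collagenases differed in abundance. Mmp13, the main interstitial collagenase of rodents, was 0 to 0.309 CPM in Cre chow with a median of 0.128, and 5.97, 3.32, 3.14, 5.82 and 3.59 CPM in Cre MCD, with no overlap (4.66 ± 0.47, adjusted p = 4.29e-08). The Cre chow libraries held only 0 to 5 counts, so the size depends on the prior count, and the difference of mean log2 CPM with a prior count of 2 was 3.95. Livers of FLCN KO mice had 0.0778, 0.238, 0.201, 0.607 and 0.593 CPM on chow and 0.541 to 1.94 CPM on MCD with a median of 1.55 (1.95 ± 0.44, adjusted p = 0.00108). Every FLCN KO MCD liver was below every Cre MCD liver (-1.63 ± 0.36, adjusted p = 0.00345), the chow groups overlapped (1.08 ± 0.57, adjusted p = 0.259), and the interaction was -2.71 ± 0.67 (adjusted p = 0.0157). Mmp8, the neutrophil collagenase, was too low for the fit. It had 0 to 2 counts in Cre chow and 24, 8, 7, 11 and 28 in Cre MCD, all higher, at least 3.54-fold against a floor of 3 counts per library (exact permutation test, 2-sided p = 0.00216, the smallest that the design allows). The FLCN KO livers had 0, 4, 0, 1 and 4 counts on chow and 2 to 9 on MCD (exact permutation p = 0.117), and the genotypes on MCD overlapped (exact permutation p = 0.00866).

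**Figure D1:**
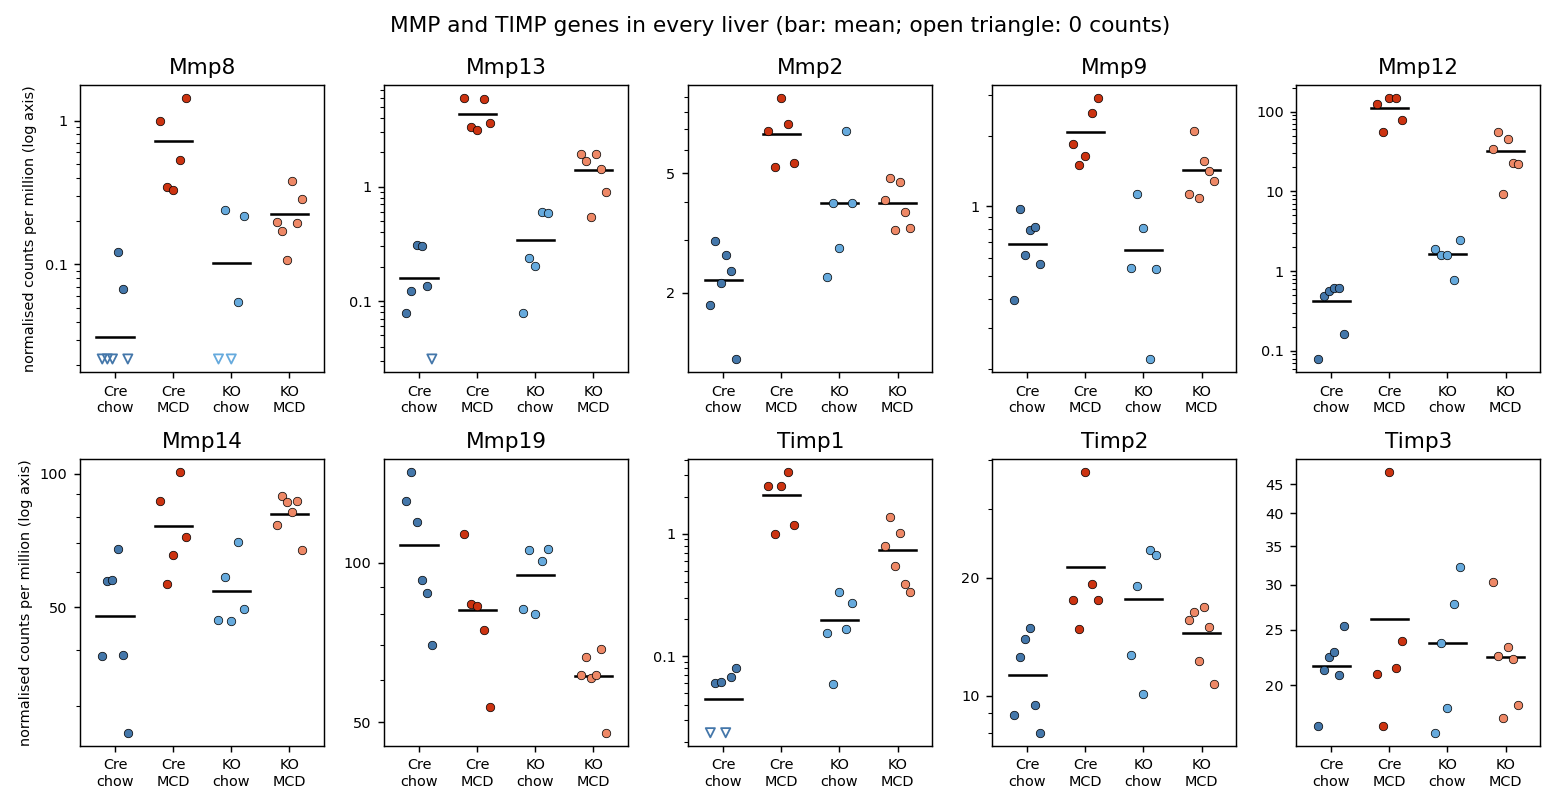
Normalised counts in CPM (log axis, own range in each panel) of the 10 genes in each of the 22 livers by group, with 1 point per liver, the group mean as a bar and open triangles for libraries with 0 counts. Mmp12 and Mmp13 stand highest in the 5 Cre MCD livers, with 1 FLCN KO MCD liver at 56.2 CPM inside the Mmp12 range of Cre MCD, and Mmp19 lies lowest in FLCN KO MCD on average.

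Of the gelatinases, which cut denatured collagen and basement membrane, only Mmp2 had an interaction that passed the threshold. Mmp2, made mainly by stellate cells and fibroblasts, was 1.21 to 2.98 CPM in Cre chow with a median of 2.26, and 6.92, 5.26, 8.91, 7.28 and 5.43 CPM in Cre MCD (1.61 ± 0.24, 3.04-fold, adjusted p = 1.07e-05). In FLCN KO livers it was 2.26, 3.98, 2.82, 6.89 and 3.99 CPM on chow and 3.24 to 4.82 CPM on MCD with a median of 3.90, and the difference by diet was -0.01 ± 0.24 (adjusted p = 0.973). All 6 FLCN KO MCD livers were below all 5 Cre MCD livers (-0.76 ± 0.23, adjusted p = 0.0284), and on chow the overlapping groups differed the other way (0.85 ± 0.25, adjusted p = 0.0343). That chow difference was not called with limma-voom (0.81, adjusted p = 0.0788) or with a replicate block (0.75, adjusted p = 0.0632). Without FLCN KO Chow 4 it was 0.56 (adjusted p = 0.175). The interaction was -1.62 ± 0.34 (adjusted p = 0.00622). Mmp9, which neutrophils carry in granules, rose on MCD in both genotypes. It went from 0.395 to 0.972 CPM (median 0.704) to 1.85, 1.51, 1.64, 2.52 and 2.92 CPM in Cre mice (1.57 ± 0.30, adjusted p = 0.000137). In FLCN KO mice it was 0.545, 1.13, 0.806, 0.221 and 0.539 CPM on chow and 1.08 to 2.11 CPM on MCD with a median of 1.35 (1.15 ± 0.31, adjusted p = 0.00461). Its interaction was -0.42 ± 0.43 (95% interval -1.33 to 0.49, adjusted p = 0.603), which leaves room for a difference in either direction.

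Mmp14 and Mmp19 were the most abundant proteases of the list on chow. Mmp14, a membrane-anchored protease that activates the Mmp2 precursor with the help of Timp2, was 26.1 to 67.7 CPM in Cre chow with a median of 48.2, and 86.8, 56.4, 65.6, 101 and 72.1 CPM in Cre MCD (0.67 ± 0.19, adjusted p = 0.00435). Without Flcn it was 46.8, 58.5, 46.7, 70.1 and 49.5 CPM on chow and 67.5 to 89.0 CPM on MCD with a median of 84.2 (0.58 ± 0.19, adjusted p = 0.0166). Both rises left the groups overlapping, and the interaction was -0.09 ± 0.27 (95% interval -0.66 to 0.47, adjusted p = 0.871). Mmp19, a secreted protease of basement membrane proteins, was the one member that fell. In FLCN KO livers it was 81.9, 106, 80.1, 101 and 106 CPM on chow and 47.8 to 68.7 CPM on MCD with a median of 61.5, with no overlap (-0.64 ± 0.18, adjusted p = 0.00519). In Cre livers it was 69.9 to 149 CPM on chow with a median of 106 and 113, 83.6, 83.0, 74.7 and 53.4 CPM on MCD (-0.41 ± 0.18, adjusted p = 0.0542), and the interaction was -0.23 ± 0.25 (adjusted p = 0.620). Of the exon bases of Mmp19, 22.3% overlap Tmem198b on the opposite strand, and whether the counting used strand is not given in the sources used here. With scaling to total counts alone, the differences of Mmp19 were 0.018 (adjusted p = 0.936) in Cre mice and -0.37 (adjusted p = 0.105) in FLCN KO mice, so the call depends on the scaling. In Cre mice the difference was called in some other settings, with -0.61 (adjusted p = 0.0141) without the 3 libraries that stand apart, -0.56 (adjusted p = 0.0155) without the 5 chow libraries with a low mapped share, -0.48 (adjusted p = 0.0143) with the replicate block, adjusted p = 0.0441 with sex-linked transcripts as covariate and 0.0488 with a stricter filter, and in 4 of the 22 fits that left out 1 library.

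Among the inhibitors, Timp1, the TIMP that is typically induced in fibrotic liver, rose most. It had 0 or 1 count in every Cre chow library and 60, 23, 52, 66 and 23 counts in Cre MCD, which is at least 10.0-fold higher against the floor of 3 counts per library. The fitted log2 difference, 5.32 ± 0.56 (adjusted p = 7.6e-08), depends on the prior count added to such low values. The FLCN KO libraries held 2, 1, 5, 3 and 5 counts on chow and 7 to 32 on MCD (1.89 ± 0.48, adjusted p = 0.00285). On MCD it was 2.47, 0.991, 2.44, 3.20 and 1.18 CPM in Cre livers and 0.334 to 1.38 CPM in FLCN KO livers with a median of 0.664. These groups overlapped and differed by -1.45 ± 0.37 (2.73-fold lower, adjusted p = 0.00886). The interaction was -3.43 ± 0.82 (adjusted p = 0.0137) and rests on the near-empty Cre chow libraries. Timp2, which is more evenly expressed, was 8.03 to 14.9 CPM in Cre chow with a median of 11.0 and 17.5, 14.8, 37.3, 19.3 and 17.5 CPM in Cre MCD (0.91 ± 0.24, adjusted p = 0.00294). Its FLCN KO values were 12.7, 19.0, 10.1, 23.5 and 22.9 CPM on chow and 10.7 to 16.9 CPM on MCD with a median of 15.3 (-0.29 ± 0.24, adjusted p = 0.343, but -0.59, adjusted p = 0.0405, without the 5 chow libraries with a low mapped share), and the interaction was -1.20 ± 0.34 (adjusted p = 0.0316). Timp3, which stays bound to the matrix and also inhibits ADAM proteases, passed no test in the fit of all libraries with TMM scaling. With total counts its difference by diet in Cre mice was 0.68 (adjusted p = 0.0086), and with Xist alone that in FLCN KO mice was called, as given below. Its group means lay between 21.6 ± 2.80 (SD, n = 6, Cre chow) and 26.1 ± 12.1 CPM (SD, n = 5, Cre MCD), and its interaction was -0.35 ± 0.31 (95% interval -0.999 to 0.29). Of the exon bases of Timp3, 21.3% overlap Syn3 on the opposite strand.

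The counts of calls stood as follows beside all 14062 genes tested. The filter used the mean count over all 22 libraries. Timp1 and Mmp13, near 0 in Cre chow, thus entered through the MCD libraries, where they were high. With only the groups compared, 7 members could be tested on chow. The counts and medians that include Timp1 and Mmp13 are therefore partly set by the filter. On MCD in Cre mice, 7 of the 9 tested members rose and 0 fell, against 29.3% of all genes called higher and 28.2% called lower. In FLCN KO mice, 5 rose (Mmp9, Mmp12, Mmp13, Mmp14 and Timp1) and Mmp19 fell, against 22.5% called higher and 22.5% called lower. FLCN KO against Cre on chow gave 2 higher members, Mmp2 and Mmp12, and 0 lower ones, against 5.52% and 3.1% of all genes. On MCD the same comparison gave 0 higher and 4 lower members, Mmp2, Mmp12, Mmp13 and Timp1, against 8.06% and 8.53%. The interaction was called for 5 members, Mmp2, Mmp12, Mmp13, Timp1 and Timp2, all negative, against 5.54% of all genes called negative and 3.29% called positive. All 9 tested members had a negative interaction value, but the share of all genes with a negative value was not counted. The value of Mmp14 was near 0 and turned to 0.20 in the libraries with Xist. That of Mmp19 was 0.018 without the 3 libraries that stand apart. The median log2 difference of the 9 was 1.57 in Cre mice and 0.58 in FLCN KO mice by diet, 0.64 on chow and -0.56 on MCD by genotype, and -1.20 for the interaction, where the medians of all genes were 0.01, 0.00, -0.03, -0.01 and 0.03. Timp1 was at or under the floor in all Cre chow libraries. With Timp1 at its bound, the medians were 1.57 by diet in Cre mice, 0.18 on chow and -1.20 for the interaction, so that on chow the median of 0.64 depends on the fitted value of Timp1. The comparisons share groups, since the Cre chow livers enter the diet comparison, the genotype comparison and the interaction, and so do the other groups, so these counts do not back each other up.

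**Figure D2:**
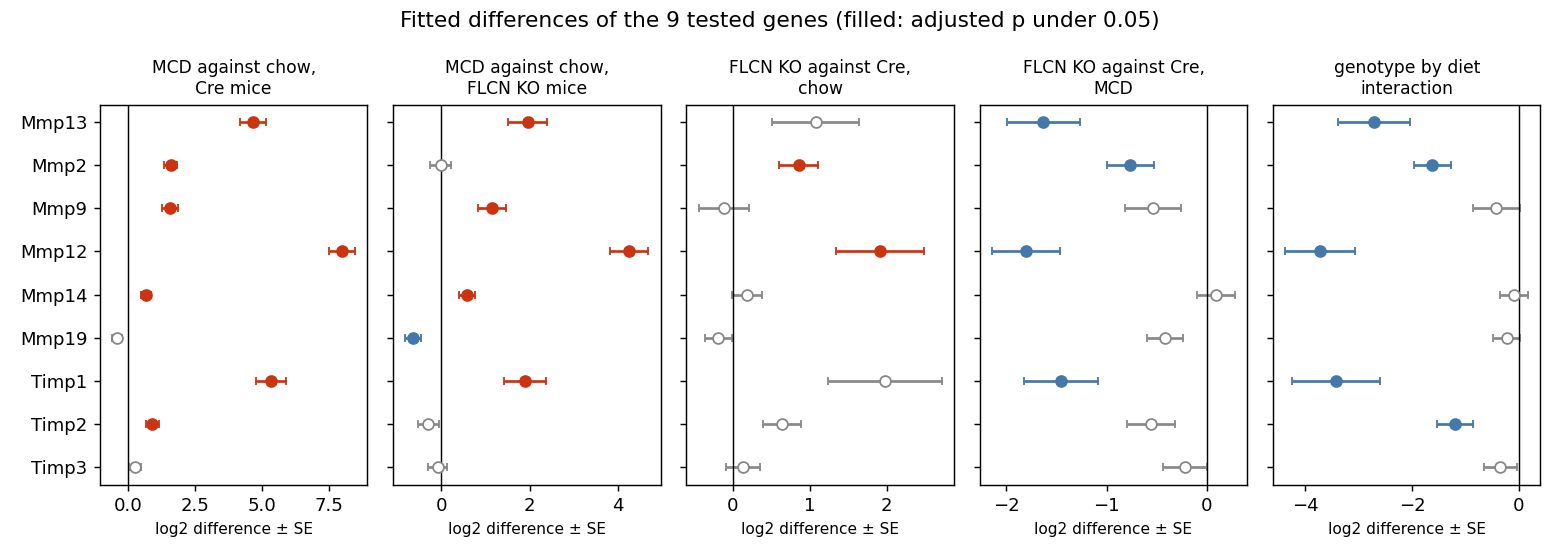
Log2 differences with their SE (x axis, own range in each panel) for the 9 tested genes in the 4 pairwise comparisons and the interaction, filled where the adjusted p was under 0.05 (red higher, blue lower). Mmp12, Mmp13, Timp1 and Mmp2 are filled on the left of 0 in both of the last panels, and Mmp14 sits near 0 in each comparison by genotype.

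How firm these calls were differed between members. The rises of Mmp2, Mmp9, Mmp12, Mmp13 and Timp1 in Cre mice, and the lower Mmp12 on MCD in FLCN KO mice, were called under every alternative tried. The chow calls were weak. That of Mmp2 was lost without any of Cre Chow 1, 3, 5 and 6 or FLCN KO Chow 2, 4 and 5 (adjusted p from 0.0509 to 0.175), and that of Mmp12 without any of Cre Chow 1, 2, 3, 5 and 6 or FLCN KO Chow 1, 2, 3 and 5 (0.0526 to 0.101). In those fits the log2 difference was 0.56 to 0.87 for Mmp2 and 1.72 to 2.03 for Mmp12. The lower Mmp2 on MCD was lost without any of Cre MCD 1, 3 and 4 or FLCN KO MCD 3, 5 and 6 (0.0523 to 0.0716), and the Timp2 interaction without any of Cre Chow 1 and 5, Cre MCD 3, FLCN KO Chow 4 and 5 or FLCN KO MCD 3 and 6 (0.0506 to 0.0694). The log2 values were then -0.75 to -0.64 for Mmp2 and -1.15 to -0.90 for Timp2. Limma-voom called neither chow difference (Mmp2 0.81, adjusted p = 0.0788, and Mmp12 1.99, adjusted p = 0.335) nor the interactions of Mmp12 (-3.90, adjusted p = 0.0525) and Timp2 (-1.09, adjusted p = 0.0559). A replicate block left 0 members called on chow and the Timp1 interaction at -3.18 (adjusted p = 0.0528). Without the 5 chow libraries with a low mapped share, the rise of Mmp14 in Cre mice was 0.32 (adjusted p = 0.106) and the Timp1 interaction -3.33 (adjusted p = 0.102). Leaving out the 3 libraries that stand apart together (Cre MCD 1, Cre MCD 3 and FLCN KO Chow 2) left 0 members called on chow and 2 lower on MCD, Mmp12 (-1.56, adjusted p = 0.0149) and Mmp13 (-1.59, adjusted p = 0.0162), and 4 negative interactions, with Timp2 at -0.87 (adjusted p = 0.118). Mmp2 on MCD was then -0.59 (adjusted p = 0.175) and Timp1 -1.25 (adjusted p = 0.0556).

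Because sex was not labelled and could not be separated from the mapped share on chow, the members were also compared within the 12 libraries with Xist and within the 10 without. The interaction of Mmp12 was -3.78 (adjusted p = 0.00901) with Xist and -4.26 (adjusted p = 0.0249) without. That of Mmp2 was -1.71 (adjusted p = 0.00944) and -1.37 (adjusted p = 0.176), that of Mmp13 -3.12 (adjusted p = 0.0177) and -2.19 (adjusted p = 0.472), that of Timp1 -3.76 (adjusted p = 0.0457) and -3.61 (adjusted p = 0.134), and that of Timp2 -1.05 (adjusted p = 0.00907) and -1.20 (adjusted p = 0.174). All 5 had the same sign in both sets of livers. They were chosen by their interaction over all of these livers, so the shared sign is no separate support. Without Xist the calls were lost for 4 of them, and the reason was not tested. The diet response of some members had opposite signs. In FLCN KO mice, Timp2 differed by -0.79 (adjusted p = 0.000888) with Xist and by 0.50 (adjusted p = 0.187) without, Timp3 by -0.52 (adjusted p = 0.0131) and 0.53 (adjusted p = 0.261), and Mmp2 by -0.54 (adjusted p = 0.0800) and 0.81 (adjusted p = 0.0679). In Cre mice, Mmp14 rose by 1.28 (adjusted p = 0.00124) without Xist and was 0.24 (adjusted p = 0.252) with it, and Timp2 rose by 1.71 without Xist and was 0.27 (adjusted p = 0.132) with it. The Cre MCD livers without Xist are only Cre MCD 3 and 4, the 2 with the most muscle RNA, and Cre MCD 3 had the highest Timp2. In FLCN KO mice with Xist, the differences of Mmp13 (0.98, adjusted p = 0.104), Timp1 (1.29, adjusted p = 0.110) and Mmp14 (0.43, adjusted p = 0.0531) by diet were not called, nor was that of Mmp19 (-0.38, adjusted p = 0.251) without Xist or that of Mmp9 in either set (1.02 and 1.21, adjusted p = 0.0864 and 0.0814). The difference between these subsets was not tested.

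Levels were compared between genes only per kb of exon. Mmp19 ranked highest of the 10 in each group, with 67.7% of their summed level in Cre chow, 34.6% in Cre MCD, 59.2% in FLCN KO chow and 38.6% in FLCN KO MCD. Mmp12 moved from 0.127% and rank 8 in Cre chow to 22.9% and rank 2 in Cre MCD, and from 0.504% and rank 6 in FLCN KO chow to 9.76% and rank 3 in FLCN KO MCD. In Cre MCD its 15.3 ± 5.79 CPM per kb (SD, n = 5) overlapped with the 12.8 ± 2.97 of Mmp14 and the 23.1 ± 6.09 of Mmp19, though within each of these 5 livers Mmp19 was above Mmp12. Mmp12 was above Mmp14 in 3 of the 5, so these neighbours were not separated. Nor were ranks 7 to 9 in Cre chow, held by Mmp13 (0.0592 ± 0.0465), Mmp12 (0.0575 ± 0.0325) and Timp1 (0.0508 ± 0.0401). In FLCN KO chow, Mmp12 (0.229 ± 0.0824) and Timp1 (0.222 ± 0.121) overlapped as well. Mmp8 ranked lowest in each group. The 7 MMPs summed to 39.6 ± 9.97 CPM per kb in Cre chow, 55.7 ± 11.9 in Cre MCD, 37.8 ± 5.33 in FLCN KO chow and 37.5 ± 5.01 in FLCN KO MCD. The 3 TIMPs summed to 5.61 ± 0.861, 11.0 ± 4.28, 7.65 ± 2.28 and 7.29 ± 1.41 in the same order. The ratio of the sums was 7.17 ± 2.03, 5.42 ± 1.44, 5.15 ± 0.919 and 5.21 ± 0.558, with overlapping ranges in all 4 groups. Transcript levels do not give the activity of the proteins, which depends on activation of the precursors and on binding of the inhibitors.

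**Figure D3:**
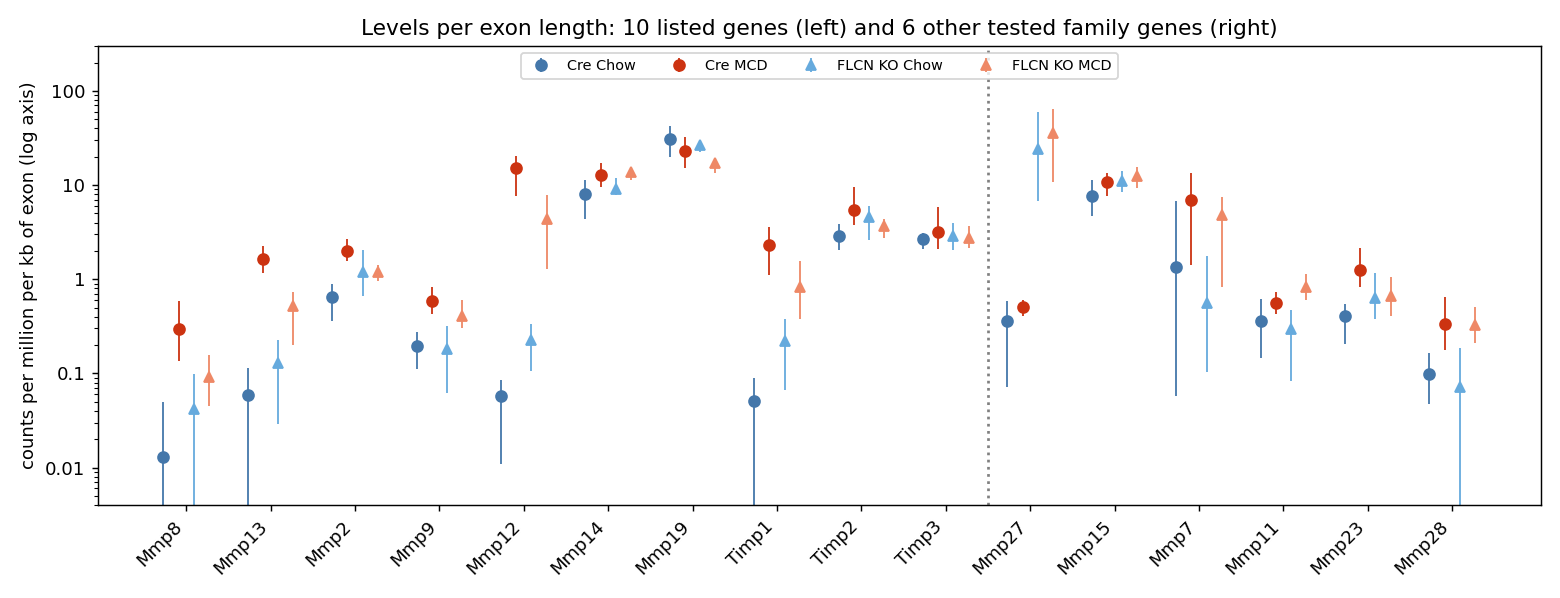
Mean CPM per kb of exon (log axis) of the 10 listed genes (left of the dotted line) and of 6 other tested family genes, by group, with bars from the lowest to the highest liver. Bars that reach the lower edge include a library with 0 counts. Mmp19 stands highest among the listed genes in each group, and Mmp27 stands apart between genotypes on both diets.

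Of 17 further MMP and TIMP genes, 6 could be tested. Mmp27, the neighbour of Mmp8 on chromosome 9, differed by genotype on both diets. It was 0.158 to 1.30 CPM in Cre chow with a median of 0.822 and 1.32, 1.12, 0.891, 1.31 and 0.922 CPM in Cre MCD. In FLCN KO livers it was 132, 19.0, 81.4, 17.3 and 14.9 CPM on chow and 24.0 to 141 CPM on MCD with a median of 74.5. Every FLCN KO liver was above every Cre liver, by 6.02 ± 0.63 on chow (65.1-fold, adjusted p = 1.3e-06) and 6.12 ± 0.64 on MCD (69.6-fold, adjusted p = 1.62e-06), with an interaction of 0.10 ± 0.90 (adjusted p = 0.962). The 2 highest FLCN KO chow livers, at 132 and 81.4 CPM, were those of the libraries with a low mapped share and without Xist. Without the 5 chow libraries of that kind the difference on chow was 4.11 (adjusted p = 0.000144), and the difference by diet in FLCN KO mice, 0.57 ± 0.47 (adjusted p = 0.344) over all libraries, was 2.19 (adjusted p = 0.000143). Its 250-base window held no AP-1 or E-box match. Mmp7, the matrilysin of epithelial cells, rose on MCD in Cre mice (2.33 ± 0.84, adjusted p = 0.0212) and FLCN KO mice (3.04 ± 0.95, adjusted p = 0.0123). Cre Chow 5 held 108 counts of Mmp7 against 1 to 11 in the other Cre chow libraries, and without it the rise in Cre mice was 4.68 (adjusted p = 4.27e-05). Without Cre MCD 2 it was 1.95 (adjusted p = 0.0648), and without FLCN KO Chow 5 the rise in FLCN KO mice was 4.26 (adjusted p = 0.00495). Mmp28 also rose in both (1.77 ± 0.52, adjusted p = 0.00616, and 2.06 ± 0.55, adjusted p = 0.00410). Mmp11, a stromal protease, rose in FLCN KO mice (1.46 ± 0.33, adjusted p = 0.000997) and was 0.62 ± 0.32 (adjusted p = 0.102) in Cre mice. Mmp23 differed by 1.60 ± 0.33 (adjusted p = 0.000269) by diet in Cre mice and by 0.06 ± 0.32 (adjusted p = 0.891) in FLCN KO mice, with an interaction of -1.54 ± 0.46 (adjusted p = 0.0391), which limma-voom did not call (adjusted p = 0.0622) and 12 of the 22 fits without 1 library did not call. Mmp15, with 41.6 to 67.7 CPM as group means, passed no test. The other 11, including Mmp3 and Timp4, averaged under 10 counts.

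The matrix proteins that these enzymes cut were counted in the same comparisons. Of 20 substrates, 19 were tested, and 16 rose and 1 fell on MCD in Cre mice, against 4 and 3 in FLCN KO mice. By diet in Cre mice 29.3% of all genes were called higher and 28.2% lower. On chow 2 substrates were higher in FLCN KO livers and 0 lower (5.52% and 3.1% of all genes). In a list this short, 2 calls are near that share. On MCD 0 were higher and 14 lower (8.06% and 8.53%). There were 12 negative interactions and 0 positive (5.54% and 3.29%). The 4 and 3 of 19 in FLCN KO mice are near or under the 22.5% of all genes called in each direction there. Col3a1, a fibrillar collagen, was 1.36 ± 0.36 by diet in Cre mice (adjusted p = 0.00273) and -0.89 ± 0.36 in FLCN KO mice (adjusted p = 0.0490), with an interaction of -2.25 ± 0.51 (adjusted p = 0.00971). Col4a1 and Col4a2, of the basement membrane, rose in both genotypes, by 1.71 ± 0.14 and 1.45 ± 0.11 in Cre mice (adjusted p = 2.33e-09 and 5.76e-10) and by 0.54 ± 0.14 and 0.44 ± 0.11 in FLCN KO mice (adjusted p = 0.00340 and 0.00193). Without the 3 libraries that stand apart, 12 substrates rose in Cre mice, 4 were lower in FLCN KO mice on MCD and 7 interactions were negative. Of all 13923 genes tested in that setting, 3812 rose in Cre mice, 748 were lower on MCD and 528 had a negative interaction.

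Genes that activate or inhibit MMPs were counted in the same way. All 7 genes of the plasminogen system, whose product plasmin activates MMP precursors, were tested, with 4 higher and 3 lower by diet in Cre mice (29.3% and 28.2% of all genes) and 3 and 2 in FLCN KO mice (22.5% each). In a list of 7, the 3 lower in Cre mice and the 3 and 2 in FLCN KO mice are near those shares. On MCD 4 were lower in FLCN KO livers (8.53% of all genes). Plat, the tissue plasminogen activator, rose by 4.19 ± 0.44 in Cre mice (adjusted p = 7.53e-08) and 1.87 ± 0.44 in FLCN KO mice (adjusted p = 0.00148), with an interaction of -2.31 ± 0.63 (adjusted p = 0.0250). Of 10 MMP activators and binding partners, 9 were tested. By diet in Cre mice 5 were higher and 3 lower (29.3% and 28.2% of all genes). In FLCN KO mice 3 were higher and 2 lower. In FLCN KO livers on MCD 3 were higher and 3 lower (8.06% and 8.53% of all genes), and 0 interactions were called. The 3 and 2 of 9 in FLCN KO mice and the 3 lower in Cre mice stood near the shares of all genes, 22.5% in each direction and 28.2%. Lcn2, which binds Mmp9, rose by 3.93 ± 0.65 in Cre mice (adjusted p = 2.91e-05) and was 1.37 ± 0.62 in FLCN KO mice (adjusted p = 0.0772). Of 9 other inhibitors and enhancers, 7 were tested, and 4 rose and 3 fell in Cre mice (29.3% and 28.2% of all genes) while 0 rose and 4 fell in FLCN KO mice (22.5% each). Pcolce, an enhancer of procollagen processing, had an interaction of -1.29 ± 0.26 (adjusted p = 0.00489), and Tfpi2, a serine protease inhibitor, one of 0.59 ± 0.17 (adjusted p = 0.0313). Of 20 ADAM and ADAMTS proteases, which Timp3 can inhibit in part, 17 were tested. By diet in Cre mice 9 were higher and 2 lower (29.3% and 28.2% of all genes), and in FLCN KO mice 3 and 5. The interaction was called negative for 4 (5.54% of all genes). The counts in FLCN KO mice stood near the 22.5% of all genes called in each direction. Adamts2, which trims procollagen, rose by 0.99 ± 0.24 in Cre mice (adjusted p = 0.00134) and fell by 0.96 in FLCN KO mice (SE 0.24, adjusted p = 0.00265). Of 18 cytokines and transcription factors that act upstream of MMP genes, 14 were tested, and 4 rose (Tgfb1, Ets2, Tnf and Jun) and Nfkb1 fell in Cre mice. In FLCN KO mice Ets2 rose and Nfkb1 and Ets1 fell, under the 22.5% of all genes called in each direction. On MCD Tgfb1 and Jund were lower in FLCN KO livers. In a list this short, that is near the 8.53% of all genes called lower. The 4 that rose in Cre mice, of 14, stood near the 29.3% of all genes called higher, and the 1 that fell was under the 28.2% called lower. Jun, Ets1 and Jund are named here after their values were seen. No interaction in that list was called.

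Markers of macrophages, neutrophils and stellate cells rose on MCD in Cre mice as most members did, and in bulk RNA fewer cells of a type and less RNA per cell cannot be told apart. The counts of markers that follow stand beside 29.3% of all genes called higher by diet in Cre mice and 22.5% in FLCN KO mice, and, for FLCN KO against Cre, 5.52% called higher on chow and 8.53% lower on MCD. The interaction was called negative for 5.54% of all genes. The 7 monocyte and macrophage markers summed to 71.8 ± 10.1 CPM (SD, n = 6) in Cre chow, 223 ± 59.6 (n = 5) in Cre MCD, 100.2 ± 15.3 (n = 5) in FLCN KO chow and 119 ± 51.6 (n = 6) in FLCN KO MCD. All 7 rose in Cre mice, 3 rose in FLCN KO mice, 2 were higher in FLCN KO livers on chow and 4 lower on MCD, and 6 interactions were negative. Lyz2 was the most abundant of them. The 10 neutrophil markers summed to 6.43 ± 3.24, 33.1 ± 17.2, 7.04 ± 2.33 and 19.1 ± 6.24 CPM in the same order of groups, with S100a9 most abundant. Ly6g, Elane, Mpo, Camp and Ngp averaged under 3 counts, and of the 5 that were tested all rose in Cre mice and 4 in FLCN KO mice. The 11 stellate cell and fibroblast markers, with Dcn most abundant, summed to 352 ± 84.4, 656 ± 151, 407 ± 84.0 and 450.3 ± 47.0 CPM, and 8 rose in Cre mice, 2 rose and 1 fell in FLCN KO mice, under the share of all genes, and 6 were lower in FLCN KO livers on MCD. Kupffer cell markers, with Cd5l most abundant, summed to 391 ± 73.8, 370.3 ± 132, 449 ± 76.2 and 328 ± 94.5 CPM. The 15 muscle markers were called higher on MCD in Cre mice and lower in FLCN KO livers on MCD, but their sums in Cre MCD 2 and 5, 3.06 and 1.69 CPM, lay under the highest Cre chow sum, 7.31 CPM. Without the 3 libraries that stand apart 10 could be tested, with 9 and 0 called, and those libraries do not include Cre MCD 4, at 179 CPM. The part of these cell types in the differences of the members was not tested.

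**Figure D4:**
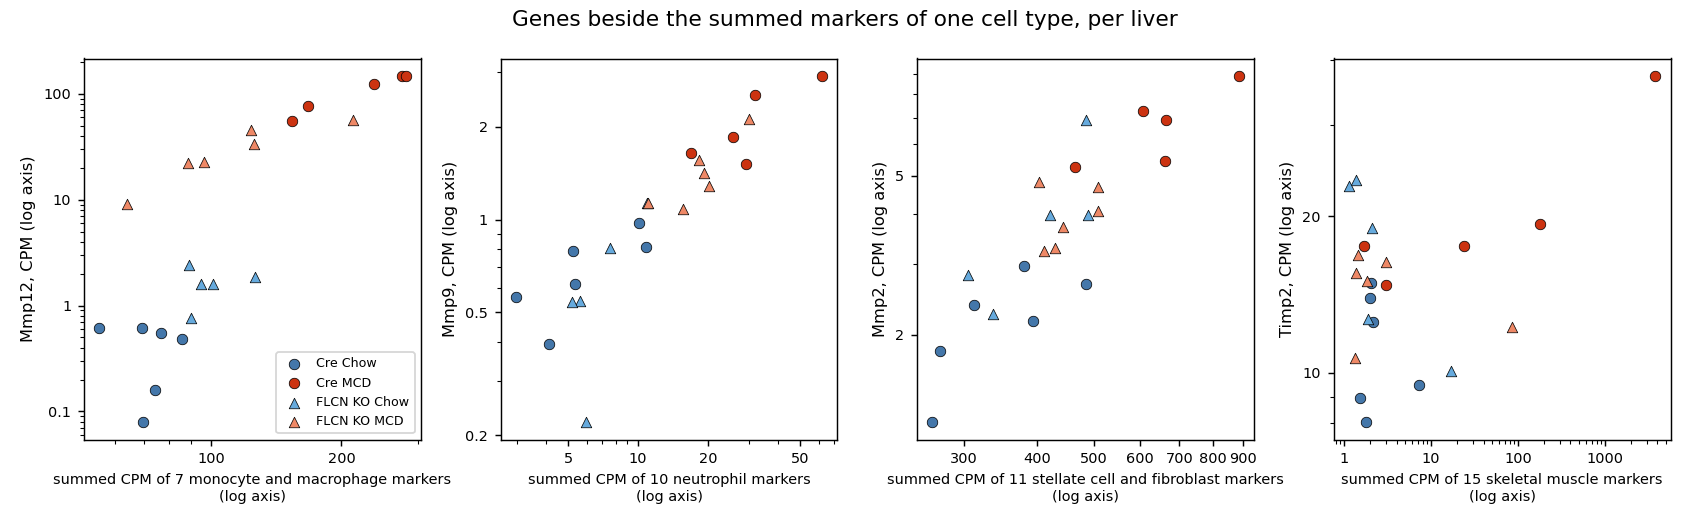
CPM of Mmp12, Mmp9, Mmp2 and Timp2 (y axes, log) against the summed CPM of the markers of 1 cell type (x axes, log), with 1 point per liver, circles for Cre and triangles for FLCN KO mice. The 5 Cre MCD livers stand at the top of the Mmp12 panel with all but 1 of the FLCN KO MCD livers below them, and Cre MCD 3 lies alone at 3773 CPM of muscle markers, with the highest Timp2, 37.3 CPM.

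The members also differed in the genes whose pattern was most like theirs. Likeness was the Euclidean distance between standardised log2 CPM over the 22 livers, in which 14061 other genes had median distances between 6.37 and 6.59. Mmp12 was nearest to Clec4d (1.13), a receptor of myeloid cells, Gpr137b-ps (1.18) and Lgals3 (1.20), Mmp13 to Iqgap1 (1.11), Itgax (1.14), a dendritic cell and macrophage integrin, and Tagln2 (1.15), and Timp1 to Trem2 (1.39), a macrophage receptor, Col4a2 (1.44) and Tpd52 (1.44). Mmp2 was nearest to Flna (1.76), Eln (1.80) and Col6a3 (1.81), and Timp2 to Col6a2 (1.76), Lama2 (1.88) and Pam (1.93). Mmp9 was nearest to the neutrophil gene S100a9 (1.93), AC160336.1 (2.13) and Arhgap23 (2.24), Mmp14 to Sybu (1.93), Rad51b (2.01) and 9930014A18Rik (2.03), Mmp19 to Ampd2 (2.11), Uck1 (2.34) and Cxcl11 (2.38), and Timp3 to Limch1 (3.00), Pdzd2 (3.16) and Fgfrl1 (3.20). Among the members, Mmp12 and Timp1 (1.47) and Mmp12 and Mmp13 (1.57) were the closest pairs. The livers share the 4 groups, so these distances include the group pattern, and its part in them was not tested.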

How the data were processed

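Poly(A) RNA of 22 mouse livers was sequenced single-end with 1 library per liver. The authors deposited raw counts per gene, made with bcl2fastq, Trimmomatic, STAR and HTSeq on GRCm38. Versions, annotation release, strand setting and any collapsing of molecular identifiers are not given in the sources used here, and no column lacked a sample. Counts were tested with edgeR 4.0.16 (R 4.3.3) by a quasi-likelihood fit of the 4 groups with TMM scaling, for the 14062 genes that averaged 10 or more counts. P-values were 2-sided, adjusted by Benjamini-Hochberg over all these genes, and called under 0.05. Errors of log2 differences are SE, and 95% intervals use the residual degrees of freedom of the samples. CPM values are counts scaled to a common TMM-adjusted library size, with a prior count of 2 in log2 values. Single genes outside the fit were compared with exact permutation tests over all splits. The labels give no cultures or litters, and each library is taken as 1 mouse. Replicates set the precision, and floors of 3 counts cover counting error only.

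All 10 members and Flcn are named, with at most 4 genes of each other list (those called in most comparisons, then by the adjusted p of the interaction), the most abundant and the near-absent markers, and the 3 nearest genes of each tested member. All 6 other tested family genes, Mmp3 and Timp4 are named beyond this rule, after their values were seen. Members and lists were chosen with earlier results of these data known. Alternatives were limma-voom (limma 3.58.1, the study's tool), DESeq2 1.42.0, other scalings and filters, a replicate block, a covariate for sex-linked transcripts, subsets of libraries and 22 fits that each left out 1 library. In data simulated for 14062 genes, 64% of log2 changes of 1 and 84% of changes of 2 were recovered for the interaction. No pair of the 50 within groups was identical. Promoter windows came from RefSeq tables of GRCm38.p6.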

Additional observations from a re-analysis of the deposited data

Results flagged for a closer look

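In Cre MCD 3, Timp2 (37.3 CPM) and Timp3 (47.3 CPM) lay far above the other 4 livers of that group. Of 40 groups of values examined, these 2 were found, where chance gives about 1 in 20. The same library held 3773 CPM of skeletal muscle markers. Without Cre MCD 3, the interaction of Timp2 was -0.90 (adjusted p = 0.0526), and its call was also lost without any of 6 other single libraries. The part of muscle RNA in these values was not tested.

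For 6 genes the response to MCD differed between Cre and FLCN KO mice by the interaction test. The log2 interaction was -1.62 for Mmp2, -3.71 for Mmp12, -2.71 for Mmp13, -3.43 for Timp1, -1.20 for Timp2 and, outside the list, -1.54 for Mmp23. For Mmp23 it was lost with limma-voom (adjusted p = 0.0622) and without the 3 libraries that stand apart (-1.33, adjusted p = 0.0872).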

How the results depend on the processing

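Members called were 7, 6, 2, 4 and 5 in Cre mice by diet, FLCN KO mice by diet, FLCN KO against Cre on chow, the same on MCD, and the interaction. DESeq2 and RLE scaling gave the same counts. On chow, 0 were called with limma-voom, with the replicate block, without the 3 libraries that stand apart and without the 5 chow libraries with a low mapped share, 1 with only the groups compared and in the libraries without Xist, and 3 with total counts and with the sex covariate. In the libraries without Xist, 4, 1 and 1 were called in FLCN KO mice by diet, on MCD and for the interaction, and 4 and 5 in FLCN KO and Cre mice by diet in those with Xist. On MCD, 2 were called without the 3 libraries. The interaction gave 3 with limma-voom and 3 with the block. Leaving out 1 library gave 7 to 8, 6, 0 to 3, 3 to 5 and 4 to 5 calls. The causes were not tested.

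The values that changed sign were uncalled with all libraries and TMM. By diet in Cre mice, Mmp19 was 0.018 with total counts, and Timp3 -0.11 with Xist and -0.059 without the 3 libraries. By diet in FLCN KO mice, Mmp2 was 0.047 with limma-voom, 0.81 without Xist, 0.13 with the block, 0.0098 with the sex covariate and 0.25 with total counts, Timp2 0.50 without Xist, and Timp3 0.53 without Xist and 0.18 with total counts. On chow, Mmp9 was 0.22 without Xist and 0.022 with total counts, Mmp14 -0.036 with Xist and -0.039 without the 5 chow libraries, and Timp3 -0.25 without Xist. On MCD, Mmp14 was -0.024 without Xist and Timp3 0.11 without the 3 libraries. For the interaction, Mmp14 was 0.20 with Xist, 0.092 with the block and 0.13 without the 5 chow libraries, and Mmp19 0.018 without the 3 libraries. Leaving out 1 library moved Timp3 from -0.056 to 0.39 in Cre mice, -0.19 to 0.053 in FLCN KO mice, -0.0038 to 0.24 on chow and -0.34 to 0.11 on MCD. It moved Mmp2 in FLCN KO mice from -0.16 to 0.28, Mmp9 on chow from -0.42 to 0.12, and Mmp14 from -0.00069 to 0.21 on MCD and from -0.22 to 0.033 for the interaction.

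With total counts in place of TMM, the median of all genes moved to 0.43, 0.27, 0.12, -0.02 and -0.13, and the calls to 7900 higher and 1748 lower (4121 and 3968 with TMM), 5803 and 1731 (3162 and 3166), 1452 and 125 (776 and 436), 1042 and 1141 (1134 and 1199), and 177 and 1236 (463 and 779). The fit of all libraries with TMM called 8089, 6328, 1212, 2333 and 1242 genes. All genes called numbered 4685, 2905, 335, 720 and 63 in a separate fit of the libraries without Xist. On chow they numbered 627 with Xist, 669 without FLCN KO Chow 4 and 495 without the 5 chow libraries, and for the interaction 552 with the block, 817 without Cre MCD 1, 813 without FLCN KO Chow 4 and 783 without the 5 chow libraries.

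Replicate numbers were not taken to pair the samples, since not every pair of same-numbered libraries had deviations correlated over 0.1. The correlations ran from -0.136 to -0.0146 in Cre mice, -0.187 to 0.210 in FLCN KO mice, -0.551 to 0.470 on chow and, all positive, 0.0621 to 0.262 on MCD. With the replicate block, 8, 6, 0, 4 and 3 members were called, and the interactions were -1.44 for Mmp2 (adjusted p = 0.0228), -3.64 for Mmp12, -2.46 for Mmp13, -3.18 for Timp1 (adjusted p = 0.0528) and -1.03 for Timp2 (adjusted p = 0.0982). Low counts limit Mmp8, Timp1 and Mmp13 on chow.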

Other observations

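Markers of other liver cells were counted in the same fit, in which 29.3% of all genes were called higher and 28.2% lower on MCD in Cre mice and 22.5% in each direction in FLCN KO mice. For FLCN KO against Cre, 5.52% were called higher on chow and 8.06% on MCD, and 5.54% had a negative interaction. With lists this short, 1 or 2 calls are near those shares. Of 7 endothelial markers, 1 rose and 4 fell on MCD in Cre mice and 5 fell in FLCN KO mice, and Stab2, a scavenger receptor of sinusoidal endothelium, was higher in FLCN KO livers by 0.76 on chow (adjusted p = 0.000228) and 0.62 on MCD (adjusted p = 0.00120, edgeR quasi-likelihood test). Of 6 Kupffer cell markers, 1 rose and 2 fell in Cre mice and 3 fell in FLCN KO mice. Marco was higher in FLCN KO livers on chow and Timd4 on MCD, and 0 were lower on either diet. Of 8 hepatocyte markers, 5 fell on MCD in each genotype. Of 5 cholangiocyte markers, 3 rose in Cre mice and 0 in FLCN KO mice, and 1 interaction, that of Spp1, was called negative, which is near the share of all genes in a list this short. Spp1 was higher in FLCN KO livers on chow and Sox9 on MCD, and 0 were lower on either diet. Of 4 tested lymphocyte markers, 0 were called in Cre mice by diet and 3 fell in FLCN KO mice.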
